A study of Mus musculus with 104 samples.

Results

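The libraries described here are 17 single-neuron libraries titled Experiment01 to Experiment07 and Control01 to Control10, called experiment 1 to 7 and control 1 to 10 here, which follow each other in the series records. They are 17 of 104 libraries, 7 of 38 titled experiment and 10 of 66 titled control. The rule that picks them uses titles and no measured value, and the labels do not call them a batch. All 45808 genes of the deposited table were followed in them.

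The series concerns genetically encoded fluorescent reporters of Lewy pathology in mouse brain. Neurons of the substantia nigra pars compacta that carried inclusions of an EGFP reporter were drawn from acute slices into patch pipettes, and their RNA was amplified by the Smart-seq2 protocol. Every library carries the label of a dopaminergic neuron from the substantia nigra. The labels give no genotype, strain, age, sex, vector or animal for either group, and they define no control neuron, nor whether one expressed the reporter. The comparison therefore sets the transcripts of 7 neurons titled experiment beside those of 10 titled control.

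Dopaminergic neurons of the nigra make dopamine from tyrosine. Th, tyrosine hydroxylase, catalyses the rate-limiting step and Ddc, aromatic amino acid decarboxylase, the next one. Slc18a2, the vesicular monoamine transporter, loads dopamine into vesicles, and Slc6a3, the dopamine transporter, takes it back up from outside the cell. These neurons fall into tiers that differ in vulnerability in Parkinson disease. Ventral-tier neurons are often marked by Aldh1a1 and Sox6, and dorsal-tier neurons and neurons of the adjacent ventral tegmental area by Calb1.

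Each library is described as a single neuron and no label names an animal. A group thus counts as 1 sample, and no test between groups was made. Levels are CPM, the count of a gene scaled to the same total of gene counts in every library, and the 3 values given for a group are the lowest, the median and the highest library. A ratio is the pooled CPM of the experiment neurons over that of the control neurons, with a 95% interval in brackets. That interval covers the counting error of reads alone, not of molecules, and is far narrower than the spread between neurons. A gene was called past the fold when it differed at least 1.5-fold in the same direction both in pooled CPM and in the equally weighted mean of library CPM.

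The experiment libraries held 337571 to 3094036 gene counts and the control libraries 1024801 to 1984343. Experiment 1 and experiment 2 supplied 56.4% of all experiment counts. With every library thinned to 300000 counts, experiment neurons showed 4455, 4909 and 6386 genes with a count, against 5021, 7140.5 and 8824 genes in control neurons. Without thinning these were 4642, 5198 and 7164 genes in experiment neurons and 5589, 8017 and 9918 in control neurons. ERCC spike-in RNA took 0.0390%, 0.427% and 1.02% of counts in experiment libraries, against 0.0338%, 0.167% and 0.549% in control libraries. Fewer genes per library and more spike-in thus accompanied the experiment title, the groups overlapping in both measures, and the part of either in the differences below was not tested. Identical counts occurred in 0 of 136 library pairs. Xist, which is transcribed from the inactive X chromosome, had 0 counts in all 17 libraries, and genes of the Y chromosome had counts in 6 of 7 experiment and 9 of 10 control libraries.

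**Figure D1:**
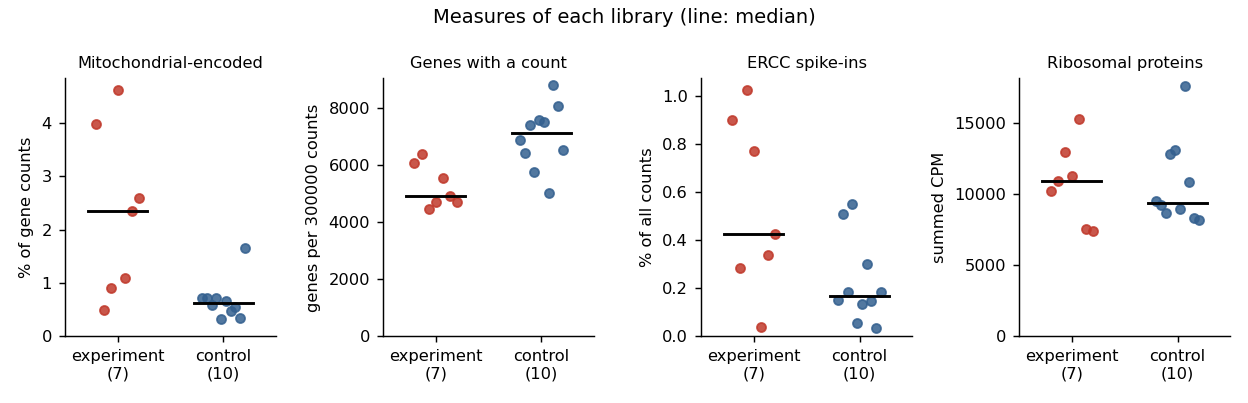
Each point is a library, 7 experiment on the left and 10 control on the right of each panel, and the line is the median. The panels give the percent of gene counts from the mitochondrial genome, the number of genes with a count after thinning to 300000 counts, the percent of all counts from ERCC spike-ins and the summed CPM of ribosomal protein genes. Experiment libraries have a median of 4909 genes, against 7140.5 in control libraries.

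The dopaminergic label was checked against 33 identity genes. All 17 libraries had counts of Th, Slc6a3, Slc18a2 and Ddc, and the summed CPM of the 33 genes was 6661, 20111 and 32505 CPM in experiment neurons, against 6041, 20854 and 33818 CPM in control neurons. Experiment 5, at 6661 CPM, and control 5, at 6041 CPM, were the lowest of their groups. The cholinergic markers Chat, Slc18a3 and Slc5a7, the serotonergic markers Tph2, Slc6a4 and Fev and the noradrenergic marker Dbh had 0 counts in all 17 libraries. Of 11 such markers of other neurons, the vesicular glutamate transporter genes Slc17a6 and Slc17a7 were expressed. The 11 summed to 0, 79.4 and 265 CPM in experiment neurons, against 17.1, 179 and 628 CPM in control neurons. In the other 31 experiment and 56 control libraries the median dopaminergic sums were 27422 and 37441 CPM. Their median GABAergic sums were 300 and 227 CPM, against 1083 and 820 CPM here.

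The promoters of the genes that carry dopamine synthesis, packaging and uptake are shown because these genes did not share a direction. The windows run from 250 bases before to 50 bases after the RefSeq gene start on GRCm38.p6, written on the strand of the gene. They lie at chr7:142899946-142900245 on the minus strand for Th, chr19:59260628-59260927 on the plus strand for Slc18a2 and chr13:73536497-73536796 on the plus strand for Slc6a3. Capitals mark the cyclic AMP response element TGACGTCA, which reads the same on both strands.
Th: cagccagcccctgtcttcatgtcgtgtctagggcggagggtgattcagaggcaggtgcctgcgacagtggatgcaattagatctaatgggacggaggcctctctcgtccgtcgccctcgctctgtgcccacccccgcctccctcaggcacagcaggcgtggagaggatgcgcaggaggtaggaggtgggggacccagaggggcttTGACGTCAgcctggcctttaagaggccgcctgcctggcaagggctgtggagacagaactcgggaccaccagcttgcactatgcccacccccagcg
Slc18a2: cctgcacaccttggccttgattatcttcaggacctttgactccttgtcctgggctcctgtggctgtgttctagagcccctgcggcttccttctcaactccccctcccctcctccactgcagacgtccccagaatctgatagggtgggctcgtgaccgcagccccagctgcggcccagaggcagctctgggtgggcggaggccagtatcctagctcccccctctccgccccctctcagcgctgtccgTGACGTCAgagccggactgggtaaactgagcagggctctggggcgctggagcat
Slc6a3: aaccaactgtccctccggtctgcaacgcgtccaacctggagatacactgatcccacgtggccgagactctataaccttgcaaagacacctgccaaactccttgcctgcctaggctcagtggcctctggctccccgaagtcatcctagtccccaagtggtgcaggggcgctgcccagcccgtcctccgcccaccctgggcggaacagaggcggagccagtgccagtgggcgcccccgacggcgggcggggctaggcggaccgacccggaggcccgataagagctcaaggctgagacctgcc
The element starts 45 bases before the start of Th and 4 bases before the start of Slc18a2, and its letters are not in the Slc6a3 window. Of 32851 promoter windows of the same length, 588 (1.79%) hold it. The letters AAAGGTCA, known as the NBRE and bound by the Nr4a nuclear receptors, were searched as AAAGGTCA and TGACCTTT. They occur in 1.51% of all windows and in none of these. A match is a description of sequence and says nothing about use of the site in these neurons.

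Th was past the fold lower in the experiment neurons, whereas Slc6a3 lay above 1 without passing the fold. Th (chr7:142892752-142931128, minus strand on mm10 in the GENCODE annotation, as for the positions that follow) had 1047, 3506 and 6584 CPM in experiment neurons, against 1128, 4934 and 12424 CPM in control neurons. The groups overlapped, but 4 of 10 control neurons lay above the highest experiment neuron. The ratio was 0.656 (0.648 to 0.664), 0.646 by the equally weighted mean, and the log2 ratio was -0.61, but -0.33 without control 3, where Th no longer passed the fold. Slc6a3 (chr13:73536747-73578672, plus strand) had 249.6, 3899 and 5263 CPM in experiment neurons, against 175, 2439 and 4437 CPM in control neurons. Here 3 of 7 experiment neurons lay above every control neuron, and the lowest values were those of experiment 5 and control 5. The ratio was 1.49 (1.47 to 1.52), just short of the fold and so not called. For Slc6a3 the log2 ratio was 0.58, 0.35 without experiment 1 and 0.73 without control 3. Within a neuron, Slc6a3 over Th in CPM, not scaled for transcript length, was 0.198, 0.797 and 2.14 in experiment neurons, against 0.132, 0.467 and 0.948 in control neurons.

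Slc18a2 (chr19:59260896-59296012, plus strand) had 403, 2414 and 7097 CPM in experiment neurons, against 215, 2450.2 and 4283 CPM in control neurons. Its medians were nearly equal, and of the experiment neurons experiment 1 and experiment 7 lay above every control neuron. The ratio was 1.66 (1.64 to 1.68), but 1.36 by the equally weighted mean, so Slc18a2 was not past the fold. The log2 ratio was 0.73, 0.22 without experiment 1 and -0.02 by library medians. Ddc (chr11:11814101-11898144, minus strand) had 182, 1153 and 2854 CPM in experiment neurons, against 52.4, 1422 and 2339 CPM in control neurons, a ratio of 1.20 (1.17 to 1.22). The log2 ratio of Ddc was 0.26, but -0.20 without experiment 1. The groups overlapped over most of the range of Ddc, which was not past the fold.

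In the background, 1194 of 7520 expressed genes (15.9%) were past the fold higher in experiment neurons and 2012 (26.8%) lower. Of the 33 dopaminergic identity genes, 29 were expressed, 7 past the fold higher and 5 lower. The median log2 ratio over the 29 was 0.32, against -0.12 over all expressed genes, but -0.18 by the mean of log2(CPM + 1), where all genes had -0.85, and 0.00 without experiment 1. The higher members were Maoa, which degrades dopamine, Ret, the GDNF receptor kinase, Dlk1, Gch1, an enzyme of tetrahydrobiopterin synthesis, the transcription factor gene En1, Ntn1 and Erlin2. Of these, Gch1, En1, Ntn1 and Erlin2 lay below 0 by library medians or by the mean of log2(CPM + 1). The lower members beside Th were Aldh1a1, Maob, the D2 autoreceptor gene Drd2 and the transcription factor gene Foxa1. Drd2 had 0, 0 and 49.5 CPM in experiment neurons, against 0, 17.5 and 129 CPM in control neurons. Its log2 ratio was -2.88, and -7.19 without experiment 4, which held most of its experiment counts.

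Markers of dopaminergic subtypes were mostly lower in the experiment neurons. Calb1, encoding the calcium buffer calbindin (chr4:15881264-15908064, plus strand), had 0, 45.3 and 591 CPM in experiment neurons, against 39.03, 844 and 4132 CPM in control neurons. It was counted in all 10 control neurons and in 4 of 7 experiment neurons, and 7 control neurons lay above the highest experiment neuron. Its log2 ratio was -2.69, and -2.05 without control 3, the highest library. Aldh1a1, which encodes a retinaldehyde dehydrogenase (chr19:20492715-20643465, plus strand), had 0, 50.4 and 186 CPM in experiment neurons, against 0, 549.7 and 3410.2 CPM in control neurons. It was below the control median in all 7 experiment neurons, and 6 of 10 control neurons exceeded the highest of them. The log2 ratio was -4.23, and -4.93 without experiment 4.

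Tacr3, the neurokinin B receptor gene (chr3:134829007-134934579, plus strand), had 0, 0 and 5.04 CPM in experiment neurons, against 0, 179 and 546 CPM in control neurons. A single experiment neuron, experiment 1, held all 14 experiment counts, against 2597 control counts in 8 neurons. The log2 ratio was -7.14, and -8.92 without experiment 1. Lpl, lipoprotein lipase (chr8:68880491-68907448, plus strand), had 0 experiment counts against 1181 control counts in 7 neurons. With the experiment sum set at 3 counts over the group, which is 0.288 CPM, it was at least 300.1-fold lower. Here and below, "at least" refers to counting error in the pooled read counts alone, not to molecules or to the spread between neurons. Grp, gastrin-releasing peptide, had 1 experiment count against 2290 control counts in 6 neurons, a ratio of 0.000573 (1.45e-05 to 0.00319). Grp and Lpl were detected together in control 1, 2, 3, 6, 8 and 9.

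Of 18 genes listed for the dorsal tier and the ventral tegmental area, 14 were expressed, 11 (78.6%) past the fold lower and 1 (7.14%) higher. Over all expressed genes, 26.8% were lower and 15.9% higher. The higher member was the transcription factor gene Nfia, although below 0 by library medians and by the mean of log2(CPM + 1). The median log2 ratio of the 14 was -2.85, with genes at 0 set at the 3-count floor. A gene could count as expressed through the libraries of a single group, as Lpl, Adcyap1 and Grp did through the control libraries. The size of this median depended on that filter, and the median was -0.17 among members with a count in every library. The lower members beside Calb1, Tacr3, Lpl and Grp were Slc17a6, a vesicular glutamate transporter, Calb2, Neurod6, Adcyap1, Ebf1, Sorcs3 and Cbln4, which lay above 0 by library medians. Of 15 ventral-tier genes, 7 were expressed, with a median of -1.28. Of the 7, 4 (57.1%) were lower (Aldh1a1, Fam19a2, Tacr3, Ndnf) and 2 (28.6%) higher (Kcns3, and Igf1, which lay below 0 by library medians). Tacr3 stood in both lists and is counted in each, and Ndnf had a log2 ratio of -0.38 without control 4. Slc17a6 had a log2 ratio of -0.61, but -0.12 without control 5. Sox6 did not pass the filter and had counts in 2 experiment and 4 control neurons. Markers commonly assigned to opposite tiers, Calb1 and Aldh1a1, were thus both lower in the experiment neurons.

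**Figure D2:**
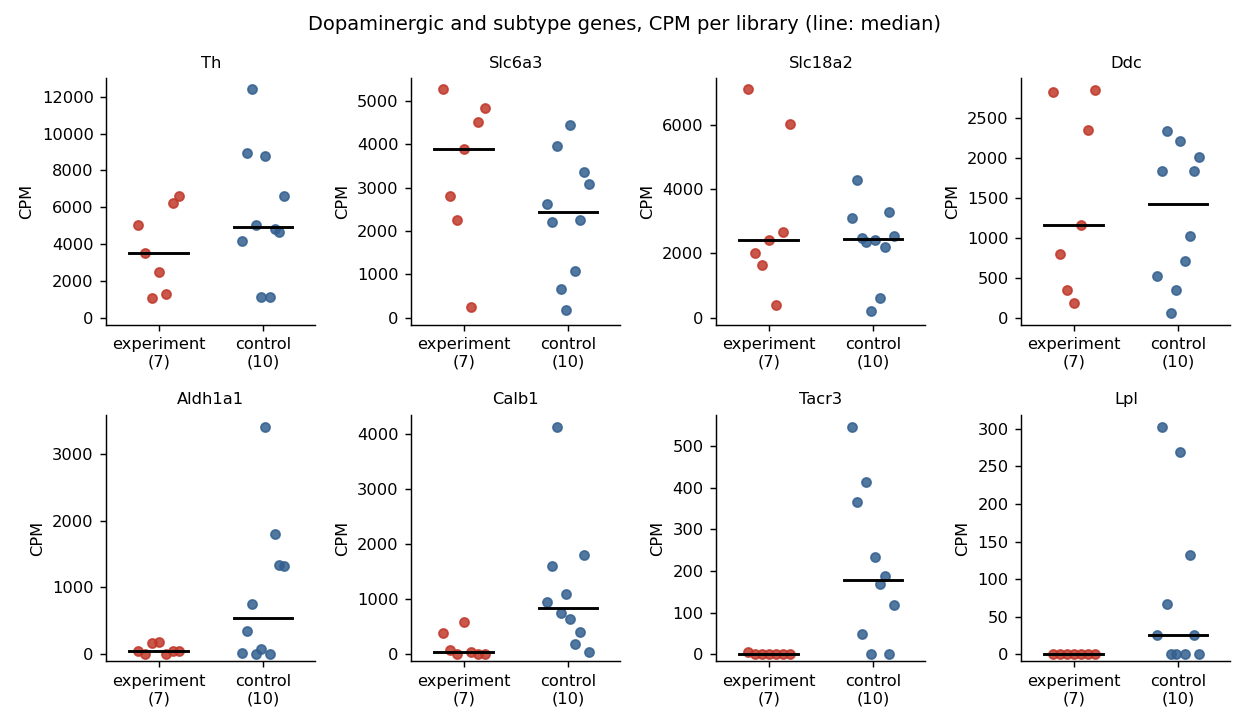
CPM of 8 genes in each of 7 experiment neurons (left) and 10 control neurons (right), with a line at the median. All 8 genes overlap between the groups. Lpl is at 0 in all 7 experiment neurons. Aldh1a1 stays at or below 186 CPM and Tacr3 at or below 5.04 CPM in experiment neurons, and both spread far above that in control neurons.

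The mitochondrial genome encodes subunits of respiratory complexes I, III, IV and V, and its transcripts carry poly(A) tails that oligo-dT priming captures. All genes of the mitochondrial genome, not only the protein-coding ones, took 0.495%, 2.35% and 4.61% of gene counts in experiment neurons. In control neurons they took 0.320%, 0.623% and 1.65%. The 13 protein-coding genes summed to 3414, 12406 and 34581 CPM in experiment neurons, against 1271, 2837 and 7616 CPM in control neurons. Of these 13 genes, 7 were expressed and all 7 were past the fold higher, against 15.9% of all expressed genes, with a median log2 ratio of 2.35. mt-Cytb, the cytochrome b of complex III, had 1364, 4111 and 18452 CPM in experiment neurons, against 301, 1071 and 3999 CPM in control neurons. All 7 experiment neurons lay above the control median and 4 above every control neuron. The ratio was 5.10 (5.02 to 5.19).

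mt-Nd1, a subunit of complex I, had 487, 1597 and 5426 CPM in experiment neurons, against 184, 409.7 and 802 CPM in control neurons, a ratio of 6.46 (6.29 to 6.65). mt-Co1, the catalytic subunit of complex IV, had 467, 1549 and 5667 CPM in experiment neurons, against 111, 441 and 1194 CPM in control neurons. Pooled, the log2 ratio was 2.47, and 1.79 without experiment 1. mt-Nd4, another complex I subunit, had a log2 ratio of 2.71, and 1.96 without experiment 1. Experiment 4, experiment 1 and experiment 7 were highest in the mitochondrial share and experiment 2 lowest, so the experiment neurons spread more widely than the control neurons.

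Nuclear genes for the same complexes did not share the size of this difference. All 77 listed were expressed, 3 past the fold higher and 0 lower, with a median log2 ratio of 0.16. Over all expressed genes, 15.9% were higher and 26.8% lower. Ndufs7, an iron-sulfur subunit of complex I, had 0, 593 and 889.6 CPM in experiment neurons, against 69.3, 158 and 319 CPM in control neurons, a ratio of 2.70 (2.57 to 2.83). Uqcrc1, a core subunit of complex III, had 662, 1116 and 1980.2 CPM in experiment neurons, against 511, 673 and 1174 CPM in control neurons, a ratio of 1.51 (1.47 to 1.55), or 0.60 on the log2 scale and 0.43 without experiment 4. In both, the groups overlapped while most experiment neurons lay above the control median. Among 19 expressed glycolytic genes, 0 were higher and 2 lower, the glucose transporters Slc2a1 and Slc2a3. Slc2a3 had a log2 ratio of -0.84, but -0.41 without control 6, and Slc2a1 -1.04, but -2.69 without experiment 2. Ldhb, a lactate dehydrogenase subunit, had 1567, 2231 and 3179 CPM in experiment neurons, against 801, 1576 and 2196 CPM in control neurons, and its ratio of 1.56 (1.53 to 1.59) missed the fold by the equally weighted mean.

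Across all genes, more were lower than higher, and the imbalance depended on the weighting. The 1194 higher and 2012 lower genes became 961 and 4339 by the mean of log2(CPM + 1), 1172 and 4361 by library medians and 998 and 2336 with TMM library sizes. The median log2 ratio of all genes was -0.12, -0.85, -1.05 and -0.22 on these scales. Among expressed genes, 168 had 0 counts in all experiment neurons and 1, Prkx, had 0 counts in all control neurons. Each of these passed the filter for expressed genes through the other group alone. A count of 0 in the shallowest library allows up to 8.89 CPM and in the deepest up to 0.970 CPM. Lower genes had a count in a median of 3 of 7 experiment and 8 of 10 control neurons, and higher genes in 5 of 7 and 7 of 10.

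**Figure D3:**
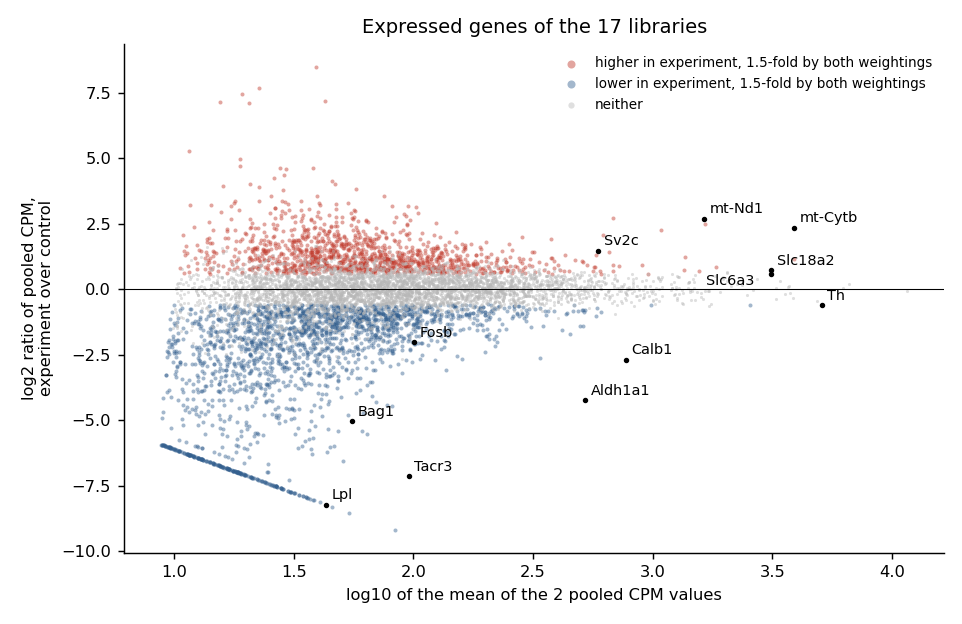
Each point is 1 of 7520 expressed genes, placed by the log10 of the mean of its experiment and control pooled CPM and by the log2 ratio of pooled CPM, experiment over control. Colour marks the 1194 genes past the fold higher in experiment neurons and the 2012 lower, and the slanted line of points holds genes with 0 experiment counts, set at the 3-count floor. Among labelled genes mt-Nd1, mt-Cytb, Sv2c, Slc18a2 and Slc6a3 lie above 0, and Th, Fosb, Calb1, Aldh1a1, Bag1, Tacr3 and Lpl below.

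No gene was higher in every experiment neuron than in every control neuron (0 of 7520, 0%), and 6 genes (0.0798%) were lower in every experiment neuron than in every control neuron. The 6 became 17 without experiment 1, and 10 without experiment 6 or control 4. Bag1, a co-chaperone of Hsp70 (chr4:40936398-40948294, minus strand), had 0, 1.28 and 25.7 CPM in experiment neurons, against 62.1, 110.3 and 161 CPM in control neurons. It was counted in all 10 control neurons and in 4 of 7 experiment neurons. On the log2 scale the ratio was -5.04, and -6.31 without experiment 5. Socs5, a suppressor of cytokine signalling (chr17:87107679-87137839, plus strand), had 0, 0.728 and 26.6 CPM in experiment neurons, against 34.8, 108 and 258 CPM in control neurons, a log2 ratio of -5.41, and -6.12 without experiment 3. Ago2, the argonaute nuclease of RNA interference (chr15:73095844-73184935, minus strand), had 0, 0 and 3.23 CPM in experiment neurons, against 13.5, 36.2 and 257 CPM in control neurons, and all 10 experiment counts were in experiment 2. The log2 ratio of Ago2 was -6.08, and -7.30 without experiment 2.

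Cul4a, a cullin scaffold of ubiquitin ligases (chr8:13105621-13147940, plus strand), and Ehbp1, which acts in endocytic trafficking (chr11:22005828-22342292, minus strand), had 0 experiment counts. Cul4a had 1.95, 75.2 and 199 CPM in control neurons and was at least 267-fold lower in experiment neurons. Ehbp1 had 0.961, 19.3 and 53.9 CPM in control neurons and was at least 80.1-fold lower. Lzts3, a leucine zipper protein of the postsynapse (chr2:130632839-130642803, minus strand), had 2 experiment counts against 726 control counts, a ratio of 0.00361 (0.000437 to 0.0131). The lowest control values of Cul4a and Ehbp1 lie below the 8.89 CPM that a count of 0 allows in the shallowest experiment library.

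The ranking of named genes skipped unnamed gene models, pseudogenes and the gene classes given under the processing, which left 7135 expressed genes. Of these, 632 (8.86%) met the full rule of size higher and 1859 (26.1%) lower. The 12 most extreme higher genes were each counted in 4 to 6 of 7 experiment neurons, and 10 of them in at most 3 control neurons. Those 10 passed the filter for expressed genes through the experiment libraries alone, so their count in at least 4 of 7 was fixed by that filter. Usp35, a deubiquitinase, had 0, 6.12 and 406 CPM in experiment neurons, against 0, 0 and 1.89 CPM in control neurons. Its 816 experiment counts against 2 control counts gave a ratio of 535 (148 to 4426), with a log2 ratio of 8.48 at the floor, and 7.03 without experiment 4. Pgm1, phosphoglucomutase, had 471 experiment counts against 1 control count, a ratio of 618 (110.3 to 24452), with a log2 ratio of 7.69 at the floor, and 6.77 without experiment 4. Prkx, a cyclic AMP-dependent kinase, had 325 experiment counts in 4 neurons against 0, at least 142-fold higher, with a log2 ratio of 7.15 at the floor, and 6.24 without experiment 1. St3gal4, a sialyltransferase, was counted in 6 of 7 experiment and 3 of 10 control neurons, with a log2 ratio of 4.64, and 7.74 without control 8. Gsn, the actin-severing protein gelsolin, had 0, 1.29 and 744 CPM in experiment neurons, against 0, 0 and 28.4 CPM in control neurons, with a log2 ratio of 4.58, but 3.41 without experiment 3 and 7.88 without control 1. The others were Tmem120a, Lace1, Sirt4, Gal3st1, Pqlc2, Tmem151b and Ccny.

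The 12 most extreme lower genes were Grp, Lpl, Cul4a and Tacr3, described above, and Sf3a3, Igfbp4, Sdc3, Nomo1, Dnajc11, Cyr61, Rab26 and Fbf1. Igfbp4, which binds insulin-like growth factors, had 0 experiment counts against 989 control counts in 7 neurons, at least 251-fold lower. Rab26, a small GTPase of secretory vesicles, had 0 against 1009 counts in 8 neurons, at least 256-fold lower. Sdc3, the heparan sulfate proteoglycan syndecan-3, had 0 against 1245 counts in 7 neurons, at least 316-fold lower, with a log2 ratio of -8.31 at the floor, and -7.63 without control 7. Nomo1, a protein of the endoplasmic reticulum membrane, had 3 against 971 counts in 8 neurons, a ratio of 0.00405 (0.000834 to 0.0119). Dnajc11, a mitochondrial co-chaperone, had 2 against 817 counts in 7 neurons, a ratio of 0.00321 (0.000388 to 0.0116). None of these was counted in all 10 control neurons except Cul4a.

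**Figure D4:**
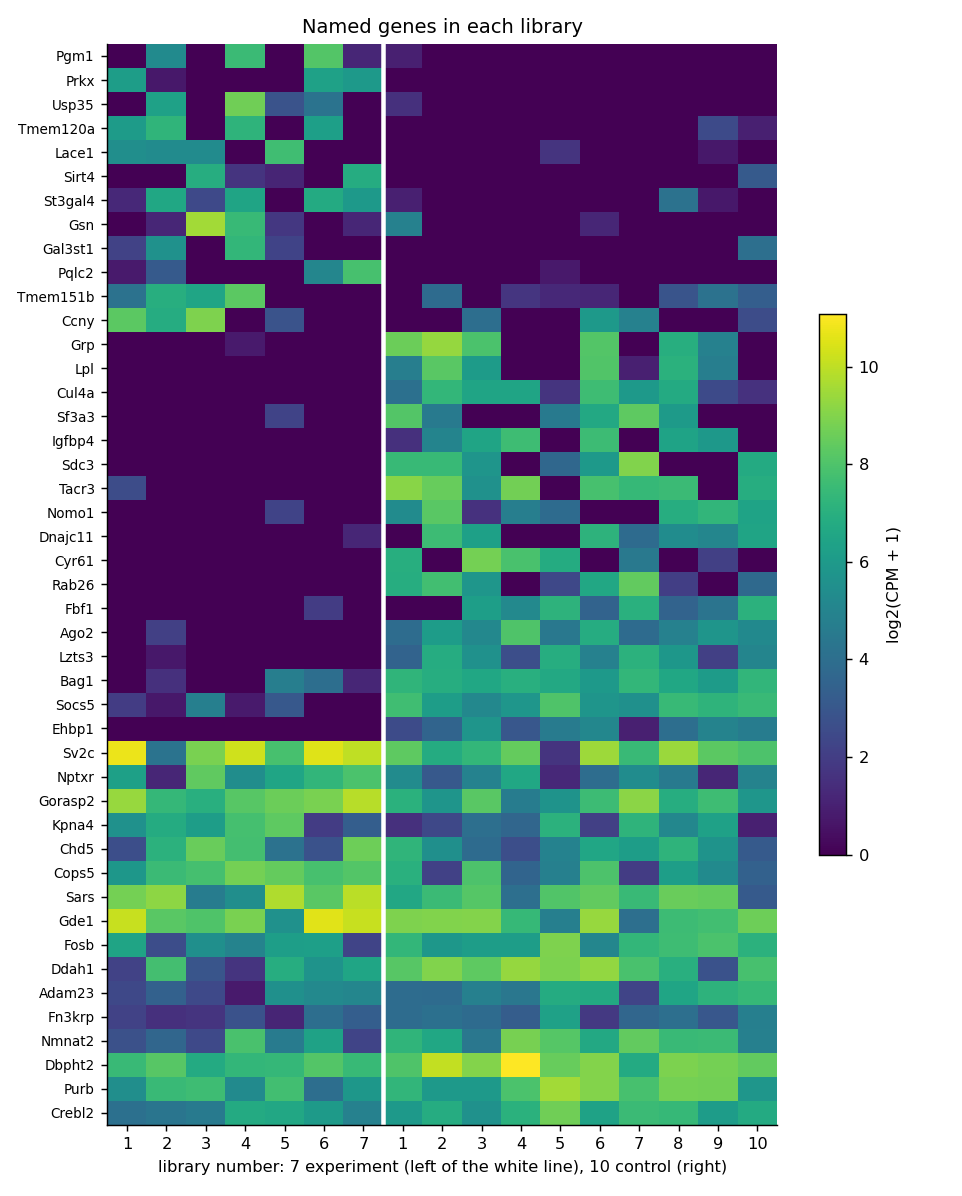
Colour gives log2(CPM + 1) of each named gene (rows) in 7 experiment libraries (left of the white line) and 10 control libraries (right). The first 12 rows are the most extreme higher genes, dark in most control libraries, the next 12 the most extreme lower genes, dark in experiment libraries, then 5 genes with no overlap, then 16 genes counted in all 17 libraries, whose difference is one of degree.

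A further description was restricted to the 1163 genes with a count in all 17 libraries, a choice made after values were seen. Of these, 88 (7.57%) were past the fold higher and 93 (7.997%) lower, with a median log2 ratio of 0.02. The 8 genes named in each direction were also chosen after their values were seen, by size of ratio. Sv2c, a synaptic vesicle glycoprotein (chr13:95954594-96132577, minus strand), had 17.5, 1023 and 1723 CPM in experiment neurons, against 2.14, 282 and 694 CPM in control neurons. Its log2 ratio was 1.46, and 0.82 without experiment 1. Cops5, the catalytic subunit of the COP9 signalosome, had 57.6, 231 and 427 CPM in experiment neurons, against 2.88, 33.03 and 249 CPM in control neurons, all 7 experiment neurons lying above the control median, and a ratio of 2.32 (2.16 to 2.49). Gorasp2, a Golgi stacking protein, had 124, 379 and 956 CPM in experiment neurons, against 23.9, 127 and 566 CPM in control neurons, a ratio of 2.66 (2.53 to 2.80). Nptxr, the neuronal pentraxin receptor, had a ratio of 3.29 (2.91 to 3.72) and Sars, the seryl-tRNA synthetase, one of 2.27 (2.17 to 2.37). Kpna4, Chd5 and Gde1 completed the higher set.

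In the other direction, Ddah1, which degrades methylated arginines (chr3:145758675-145894277, plus strand), had 2.18, 50.4 and 217 CPM in experiment neurons, against 5.84, 304 and 636 CPM in control neurons. All 7 experiment neurons lay below the control median and 8 control neurons above the highest experiment neuron. The log2 ratio was -1.92, and -3.20 without experiment 2. Fosb, an activity-dependent transcription factor gene (chr7:19302696-19310051, minus strand), had 3.85, 44.3 and 88.5 CPM in experiment neurons, against 33.3, 148 and 489 CPM in control neurons. This gave a log2 ratio of -2.02, and -2.88 without experiment 1. Adam23, a surface protein of synapses, had 0.728, 9.70 and 46.5 CPM in experiment neurons, against 3.84, 58.3 and 169 CPM in control neurons, a ratio of 0.199 (0.166 to 0.237). Nmnat2, an NAD-synthesizing enzyme known to maintain axons, had 3.85, 11.6 and 238 CPM in experiment neurons, against 20.2, 166 and 440.0 CPM in control neurons. Pooled, the log2 ratio was -2.07, and -3.89 without experiment 4. Purb, a repressor of transcription, and Crebl2 also had all 7 experiment neurons below the control median, with ratios of 0.344 (0.321 to 0.368) and 0.289 (0.259 to 0.322). Dbpht2 and Fn3krp completed the lower set.

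Among 47 expressed synaptic vesicle genes, 8 were past the fold lower and 3 higher (Sv2c, and Bsn and Ap2b1, which lay below 0 by library medians), with a median log2 ratio of -0.08. Stx1a, a plasma membrane SNARE of vesicle fusion, had 3 experiment counts in 1 neuron against 697 control counts in 7, a ratio of 0.00565 (0.00116 to 0.0166). Syn2, which tethers vesicles, had 8.89, 178 and 482 CPM in experiment neurons, against 131, 338 and 1056 CPM in control neurons, a ratio of 0.525 (0.499 to 0.552). Of 22 expressed genes of dense-core vesicles and peptides, 1 (4.55%) was higher, Pcsk1n, and 7 (31.8%) lower, and the list median was -0.33. The lower share was near the 26.8% of all expressed genes. Pcsk2, a prohormone convertase, had 0, 17.1 and 237 CPM in experiment neurons, against 35.02, 113 and 609 CPM in control neurons, a log2 ratio of -1.93, and -2.94 without experiment 1. Adcyap1, the neuropeptide PACAP, had 0 experiment counts against 714 in 5 control neurons, at least 181-fold lower.

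Of 41 expressed genes of the axon cytoskeleton and transport, 3 (7.32%) were higher and 0 lower, against 15.9% and 26.8% of all expressed genes. The list median was 0.04. Stmn3, a regulator of microtubules (chr2:181306459-181314500, minus strand), had 851, 1879.8 and 2278 CPM in experiment neurons, against 676, 924 and 1533 CPM in control neurons. Of the 7 experiment neurons, 5 lay above every control neuron, and the ratio was 1.64 (1.61 to 1.68), with a log2 ratio of 0.72, and 0.58 without experiment 1, just short of the fold. Klc2, a kinesin light chain, had a log2 ratio of 0.77, and 0.09 without experiment 2. Dync1li1, a dynein light intermediate chain, had a log2 ratio of 1.17 that turned to -0.41 by the mean of log2(CPM + 1).

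Ion channels were sparsely counted. Of 10 expressed calcium channel genes, 3 were lower (30%) and 5 higher (50%), against 26.8% and 15.9% of all expressed genes. The list median was 0.40, but -1.74 by library medians. Cacna1h, a T-type pore subunit, had 0 experiment counts against 500 in 6 control neurons, at least 127-fold lower. Cacna1e, an R-type pore subunit, had 0, 11.0 and 456 CPM in experiment neurons, against 0, 36.5 and 127 CPM in control neurons, a log2 ratio of 0.81, but -0.07 without experiment 1 and -1.64 by library medians. Of 32 expressed potassium, HCN and sodium channel genes, 8 were lower (25%) and 4 higher (12.5%), and the list median was -0.15. Kcnip4, an auxiliary subunit of A-type potassium channels, had 0, 8.85 and 102 CPM in experiment neurons, against 2.93, 266 and 456 CPM in control neurons. Of 10 control neurons, 9 lay above the highest experiment neuron. On the log2 scale the ratio was -2.68, and -3.69 without experiment 1. Kcns3, a modifier of Kv2 channels, had 0, 42.3 and 415 CPM in experiment neurons, against 0, 21.5 and 62.5 CPM in control neurons, a log2 ratio of 2.22, and 1.18 without experiment 1.

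Of 27 expressed receptor genes for glutamate, GABA and acetylcholine, 5 were lower (18.5%) and 3 higher (11.1%), against 26.8% and 15.9% of all genes. The list median was -0.20. Chrnb2, the β2 nicotinic subunit, had 0, 0 and 135 CPM in experiment neurons, against 25.9, 152 and 312 CPM in control neurons. It was counted in all 10 control neurons and in 3 of 7 experiment neurons, with a log2 ratio of -2.02, and -5.33 without experiment 1. Gabbr2, a subunit of the GABA-B receptor, had 0, 6.48 and 80.0 CPM in experiment neurons, against 17.9, 100.1 and 384 CPM in control neurons. Its log2 ratio was -2.27, and -4.10 without experiment 2. Chrna3 was higher, with a log2 ratio of 1.74, and 0.82 without experiment 4.

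Lists for protein synthesis, folding and breakdown had medians near 0. Their counts stand beside 15.9% higher and 26.8% lower over all expressed genes. Of 81 expressed ribosomal protein genes, 5 were past the fold higher and 5 lower, with a median log2 ratio of -0.03. Ribosomal protein genes have near-identical processed copies, so reads may be split between them. Of 36 expressed cytosolic chaperones, 4 were higher and 4 lower (list median 0.01). Of 39 expressed proteasome genes, 4 were higher and 6 lower (list median 0.15), and the lower ones held 3 activator subunits, Psme1, Psme2 and Psme4. Psme1 had 0, 9.35 and 168 CPM in experiment neurons, against 32.4, 82.2 and 159.5 CPM in control neurons, a ratio of 0.425 (0.377 to 0.478). Hsf1, the master regulator of the heat shock response, had 0, 0 and 23.02 CPM in experiment neurons, against 0, 87.1 and 204 CPM in control neurons. This gave a log2 ratio of -3.35, and -5.22 without experiment 1. Of 55 expressed lysosome and autophagy genes, 7 were higher and 8 lower (list median -0.03). Among them Ulk2, an autophagy-initiating kinase, had 0, 84.9 and 319.9 CPM in experiment neurons, against 0, 9.72 and 95.7 CPM in control neurons, a ratio of 3.09 (2.78 to 3.44).

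Stress and metabolic lists also held members in both directions. Of 27 expressed genes of the integrated and endoplasmic reticulum stress responses, 3 were lower (11.1%) and 6 higher (22.2%). All expressed genes had 26.8% lower and 15.9% higher, and the list median was 0.15. Slc3a2, the heavy chain of amino acid transporters, had 0, 242 and 394 CPM in experiment neurons, against 0, 38.2 and 168 CPM in control neurons. Of 7 experiment neurons, 5 lay above every control neuron, and the ratio was 2.92 (2.70 to 3.15). Sesn2, a stress-induced inhibitor of mTORC1 signalling, had 0 experiment counts against 738 in 5 control neurons, at least 188-fold lower, with a log2 ratio of -7.55 at the floor, and -6.64 without control 7.

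Of 19 expressed aminoacyl-tRNA synthetases, 7 were higher (Aars, Cars, Farsb, Gars, Mars, Sars, Tars) and 3 lower (Iars, Kars, Wars), with Cars, Mars and Tars below 0 by library medians. The list had 36.8% higher and 15.8% lower, against 15.9% and 26.8% of all expressed genes. The median of the list was 0.00, and 0.52 from equally weighted means. Tars had a log2 ratio of 1.30, but -0.86 without experiment 7. Aars, for alanine, had 0, 497 and 898 CPM in experiment neurons, against 0.961, 168 and 567.9 CPM in control neurons, a ratio of 2.49 (2.39 to 2.60). Wars, for tryptophan, had 0, 38.8 and 168 CPM in experiment neurons, against 0, 326 and 786 CPM in control neurons. Pooled, the log2 ratio was -2.40, and -3.72 without experiment 1. Of 23 expressed genes of cholesterol synthesis and uptake, 4 were higher and 5 lower (list median 0.17). Dhcr7, which makes cholesterol in the last step of 1 branch of the pathway, had 0, 113 and 156 CPM in experiment neurons, against 0, 8.33 and 106 CPM in control neurons, 4 of 7 experiment neurons lying above every control neuron, and a ratio of 3.75 (3.34 to 4.21). Of 27 expressed antioxidant and metal-handling genes, 2 were higher and 6 lower (list median 0.02). Gclc, which starts glutathione synthesis, had 0, 0 and 23.3 CPM in experiment neurons, against 0, 41.9 and 87.6 CPM in control neurons. On the log2 scale the ratio was -2.62, and -6.69 without experiment 2.

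Activity genes did not share a direction. Immediate early genes had 25% past the fold higher and 16.7% lower, against 15.9% and 26.8% of all expressed genes. Of 24 expressed immediate early genes, 6 were higher (Fosl2, Junb, Arc, Nr4a1, Dusp6, Homer1) and 4 lower (Fosb, Btg2, Atf3, Sik1), with a median of 0.08, but -0.97 by library medians and -0.38 by the mean of log2(CPM + 1). Fosl2, Dusp6 and Homer1 also lay below 0 on these scales. Fos had 492, 647 and 2257 CPM in experiment neurons, against 540.0, 1151 and 2159 CPM in control neurons. Its log2 ratio was 0.06, and -0.57 without experiment 2. Arc, an activity-regulated synaptic protein, had 0, 293 and 732 CPM in experiment neurons, against 0, 17.1 and 414 CPM in control neurons, a ratio of 2.50 (2.34 to 2.66).

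Of 15 expressed axon injury genes, 0 were higher and 6 (40%) lower, against 15.9% and 26.8% of all expressed genes (list median -0.63). Sprr1a, Gal, Ecel1, Csrp3 and Plaur had 0 counts in all 17 libraries. Sox11, a regeneration-associated transcription factor gene, had 0, 0 and 87.1 CPM in experiment neurons, against 0, 107 and 596 CPM in control neurons. This gave a log2 ratio of -2.70, and -6.18 without experiment 1. Of 18 expressed genes of p53 and apoptosis, 2 were higher, Cdkn1a and Bcl2, with Bcl2 below 0 by library medians, and 6 lower (33.3%, list median -0.48). Mcl1, an inhibitor of apoptosis, had 0, 0 and 9.05 CPM in experiment neurons, against 0, 26.03 and 131 CPM in control neurons. Pooled, the log2 ratio was -3.76, and -5.98 without experiment 2. Of 27 interferon and class I genes, 5 were expressed, 0 higher and 3 lower. Irf3, a transcription factor of the interferon response, had 0 experiment counts against 695 in 7 control neurons, at least 177-fold lower. Of 25 expressed Parkinson disease genes, 4 were higher (Atp13a2, Dnajc13, Gch1, Rab39b, all below 0 by the mean of log2(CPM + 1)) and 6 lower (Pla2g6, Dnajc6, Vps13c, Gak, Scarb2, Galc), Scarb2 turning to -0.22 without control 5, with a median of -0.26. Gak, a clathrin-uncoating kinase, had 0, 10.3 and 103 CPM in experiment neurons, against 5.00, 92.4 and 261 CPM in control neurons. On the log2 scale the ratio was -1.31, and -3.30 without experiment 2.

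**Figure D5:**
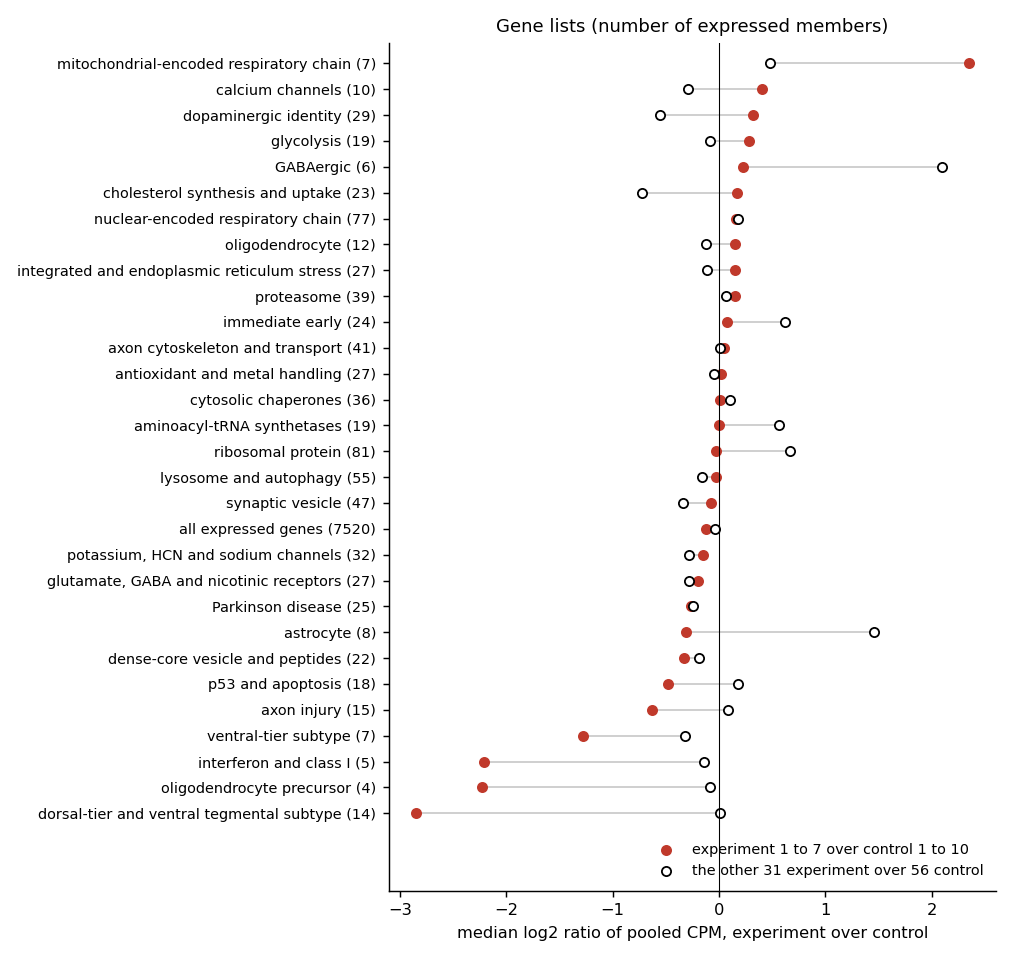
Each row is a gene list with its number of expressed members, ordered by the median log2 ratio of pooled CPM, experiment over control, in experiment 1 to 7 over control 1 to 10 (filled red). Open circles give the same lists and members in the other 31 experiment and 56 control libraries. The mitochondrial-encoded list stands at 2.35 and the dorsal-tier list at -2.85, while all 7520 genes stand at -0.12.

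Markers of other brain cells were present in most pipettes of both groups. The summed CPM of 17 oligodendrocyte markers was 67.96, 3691 and 6641 CPM in experiment neurons, against 419.8, 2589.7 and 5096 CPM in control neurons. Of the 12 expressed, 3 were higher and 3 lower (25% each, against 15.9% and 26.8% of all expressed genes). Mobp, a myelin protein gene, had 0, 365 and 739 CPM in experiment neurons, against 53.9, 113 and 209 CPM in control neurons, with a log2 ratio of 1.72, 1.02 without experiment 2 and -0.70 by the mean of log2(CPM + 1). The sum of 16 astrocyte markers was 991, 1751 and 2983 CPM in experiment neurons, against 624, 1808 and 4148 CPM in control neurons, and of 8 expressed 0 were higher and 2 lower, Slc1a3 and Ntsr2. The sum of 16 microglial markers was 0, 54.3 and 773 CPM in experiment neurons, against 0, 45.4 and 168 CPM in control neurons, with Tmem119, C1qa, Cd68 and Ptprc at 0 counts in all 17 libraries. Of 18 endothelial and mural markers, 13 were at 0 in all libraries, among them Cldn5, Pecam1, Flt1 and Kdr, and the 1 expressed member was Bsg, which neurons also express. Bsg had 458, 1078 and 2545 CPM in experiment neurons, against 268, 605 and 1083 CPM in control neurons, a ratio of 1.89 (1.84 to 1.95). The sum of 11 blood markers was at most 139 CPM. Sums of the marker lists overlapped between the groups throughout, and their part in the other results was not tested.

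The sum of 11 GABAergic markers was 50.01, 1083 and 2133 CPM in experiment neurons, against 197, 820.4 and 1593 CPM in control neurons. Of 6 expressed, 2 (33.3%) were higher, Gad1 and Gata3, and 0 lower, against 15.9% and 26.8% of all expressed genes. Gad1, which makes GABA from glutamate (chr2:70553072-70602014, plus strand), had 3.85, 276 and 691 CPM in experiment neurons, against 0, 106 and 376 CPM in control neurons, a ratio of 2.14 (2.02 to 2.27). It was counted in 16 of the 17 neurons. Gad2, its paralog, had 0, 114 and 648 CPM in experiment neurons, against 20.2, 258 and 680.4 CPM in control neurons. The log2 ratio of Gad2 was -0.52, and -1.15 without experiment 2, so the paralogs lay on opposite sides of 0. Gata3, a GABAergic lineage factor, had 0, 2.45 and 356 CPM in experiment neurons, against 0, 3.83 and 100.1 CPM in control neurons. For Gata3 the log2 ratio was 2.55, 1.74 without experiment 2 and 4.11 without control 5, but -0.49 by library medians.

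Similarity within a group overlapped that between groups. Spearman rank correlations over the expressed genes, given as a description, were 0.315, 0.382 and 0.447 (lowest, median, highest) over 21 experiment pairs, 0.281, 0.392 and 0.520 over 70 mixed pairs and 0.343, 0.426 and 0.546 over 45 control pairs. The genes that varied most among control neurons, at a pooled level of at least 100 CPM, were Aldh1a1, Ndnf, Fgf1, Rpa1, Mpv17l, Chmp1a, Pigs and Slc7a4. Ndnf, a secreted neuron-derived factor, had 0, 6.41 and 208 CPM in experiment neurons, against 0, 35.8 and 820.0 CPM in control neurons. For Ndnf the log2 ratio was -1.28, -4.08 without experiment 1 and -0.38 without control 4. Pigs, which attaches GPI anchors, had 0, 14.1 and 573 CPM in experiment neurons, against 0, 248 and 496 CPM in control neurons, and both groups held neurons without a count.

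The other 31 experiment and 56 control libraries of the series share no library with these 17, and differences between the sets of libraries were not tested. Over the same 7520 genes, 600 (7.98%) were past the fold higher there and 798 (10.6%) lower. Of the 1194 genes higher in these 17 libraries, 111 (9.30%) were higher and 129 (10.8%) lower there. Of the 2012 lower genes, 180 (8.95%) were higher and 275 (13.7%) lower there. Their median log2 ratios there were -0.02 and -0.06, against -0.03 for all genes. These libraries fall into 14 experiment and 21 control libraries titled Experiment13 to Experiment35 and Control15 to Control37, and 17 experiment and 35 control libraries titled Experiment36 to Experiment56 and control38 to control72. In the first of these sets, 231 (11.5%) of the 2012 lower genes were higher and 434 (21.6%) lower, against 10.4% higher and 16.3% lower among all 7520 genes. In the second set, 295 (14.7%) were higher and 380 (18.9%) lower, against 13.3% higher and 15.4% lower among all genes. Of the 1163 genes with a count in all 17 libraries, 4.13% were past the fold higher and 3.96% lower in the other 31 experiment and 56 control libraries. Among these genes, 6 of 88 higher genes were higher and 2 lower there, and 8 of 93 lower genes were lower and 3 higher.

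Single results differed in whether the other libraries shared their direction. Th had a ratio of 0.656 here and 0.542 there, Calb1 0.155 here and 0.129 there, and Ddah1 0.265 here and 0.337 there. Slc6a3 had 1.49 here and 0.702 there, and Slc18a2 1.66 here and 0.662 there. The median of Slc6a3 over Th was 0.797 in experiment and 0.467 in control neurons here, and 0.544 in experiment and 0.430 in control neurons there. Aldh1a1 had 0.0533 here and 3.25 there, with log2 ratios of 0.36 up to Control37 and 2.39 in the later titles, and Fosb 0.246 here and 1.84 there.

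Of the 6 genes without overlap here, 0 were past the fold lower there and 1, Ago2, was higher. Bag1 had a ratio of 0.888 there, Cul4a 1.35, Socs5 1.43, Ago2 1.58, Ehbp1 1.56 and Lzts3 0.811. The 2 sets of other libraries differed in these genes. Up to Control37, 2 of the 6, Cul4a and Ehbp1, were past the fold lower and 0 higher, and in the later titles 0 were lower and 4 higher (Cul4a, Socs5, Ago2 and Ehbp1). Among lists, the dorsal-tier median was -2.85 here and 0.01 there, or -0.73 there from equally weighted means. It was -1.29 up to Control37 and 0.46 in the later titles, so the direction here was shared by 1 of the 2 sets. The mitochondrial-encoded median was 2.35 here and 0.48 there. Dopaminergic identity genes had 0.32 here and -0.55 there. Ribosomal protein genes had -0.03 here and 0.67 there, and immediate early genes 0.08 here and 0.62 there. The share of mitochondrial counts was also lower here in control neurons, at a median of 0.623%, than in the other control libraries, at 3.23%, and in experiment neurons it was 2.35% here and 4.56% there.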

How the data were processed

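Single nigral neurons were collected by patch pipette, amplified by Smart-seq2 and turned into HyperPlus libraries, per the labels' protocols. The authors deposited raw counts in 1 table, whole reads per gene symbol, with 45808 gene rows, 92 ERCC rows and 104 library columns. The mm10 build, STAR 2.5.3a and featureCounts 1.5.3 appear per the submitters' processing notes. Strand, annotation and multiply mapped reads: not given in the sources used here. Reads carry no molecular identifiers, so intervals and floors cover the counting of reads only, not of molecules, and are too narrow for the latter.

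CPM used totals of gene rows alone. A gene was expressed with a pooled CPM of at least 10 over the 17 libraries and a count in at least 50% of a group's libraries. Ratio intervals are exact binomial splits of the summed counts at 95%, and group sums below 3 were raised to 3. The interval of a sum of 1 to 3 counts was computed from the counts themselves. Libraries were thinned to 300000 counts for genes per library. Tools were Python 3.11.15 with numpy 2.4.6, pandas 2.3.3 and scipy 1.17.1, and R 4.3.3 with edgeR 4.0.16, used for TMM factors alone.

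The 17 libraries are picked by title, but that set and the 34 gene lists were chosen with earlier results of these data known. Named genes were the 12 highest and 12 lowest at least 1.5-fold apart by pooled CPM, by mean CPM and with each group's highest library left out, with the library median in the same direction. That ranking skipped sex-linked markers, haemoglobin, mitochondrial and ribosomal protein genes, pseudogenes and unnamed gene models. Also named were up to 8 genes in each direction without overlap, up to 4 per list by size, 9 genes set whatever their values and the 8 most variable among control neurons. Positions come from GENCODE on mm10, which named 7268 of 7520 expressed symbols, and promoter sequences from RefSeq tables on GRCm38.p6. Some items are not reported here.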

Additional observations from a re-analysis of the deposited data

Results flagged for a closer look

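In 19 measures over each group (38 groups of values), 5 had an end library whose gap to its neighbour was a large part of the range (Dixon's 95% criterion). Chance gives about 1 in 20 groups only for independent measures with normally distributed values. Normality was not checked, and the mitochondrial share and mt-Cytb flagged the same library, so the 5 cannot be set against that rate. All 5 lay in control libraries. Control 10 had 1.65% of gene counts from the mitochondrial genome and 3999 CPM of mt-Cytb, above the other 9 control libraries. Control 7 had a summed ribosomal protein level of 17651 CPM. Control 6 had 3410 CPM of Aldh1a1. Control 3 had 4132 CPM of Calb1.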

How the results depend on the processing

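No paired analysis was possible because the results come from no test, although experiment and control titles share numbers. The results were recomputed under 15 alternatives and without each library in turn. The alternatives that leave out the libraries lowest in dopaminergic genes, highest in mitochondrial share or deepest, and the restriction to genes counted in every library, were chosen after seeing the data. The count of higher genes (1194) was 3134 with no minimum CPM, 631 at a pooled CPM of at least 50 and 88 among genes counted in every library, with 1169 to 1291 without single libraries. The count of lower genes (2012) was 4361 by library medians, 4339 by the mean of log2(CPM + 1), 5763 with no minimum, 732 at a CPM of at least 50, 3515 without each gene's highest library in either group and 93 among genes counted in every library, with 1985 to 2252 without single libraries. The count of lower genes without overlap (6) was 2 at a CPM of at least 50, 3 after thinning, 32 without the highest library for each gene, 11 without experiment 3 and control 7 (highest in glial markers), 10 without experiment 5 and control 5 (lowest in dopaminergic genes), 11 without experiment 4 and control 10 (highest in mitochondrial share), 32 without experiment 1 and experiment 2 (deepest) and 0 among genes counted in every library. It ranged from 6 to 17 without single libraries, with 17 without experiment 1 and 10 without experiment 6 or control 4. The count of higher genes without overlap (0) was 1 without experiment 1 and experiment 2 and 0 to 1 without single libraries. The dorsal-tier median (-2.85) was -4.29 by library medians, -1.39 at a CPM of at least 50 and -0.17 among genes counted in every library, with -3.04 to -2.61 without single libraries. Ranges without single libraries were 0.00 to 0.44 for the dopaminergic list, 1.79 to 2.77 for the mitochondrial-encoded list and -0.13 to 0.05 for ribosomal protein genes. The cause of these differences was not tested. Of 2696 values for other lists and single genes, 2499 moved by no more than 1 SD over the control libraries, 182 moved by more and 15 changed sign. By library medians the log2 ratio was -0.87 for Cebpg, -1.82 for Tars, -2.95 for Psmd9, -0.017 for Atp5g2, -1.004 for Ap2b1, -1.64 for Cacna1e, -2.05 for Dnajc13 and -0.49 for Gata3. By the mean of log2(CPM + 1) it was -0.035 for Hspa1a, -0.41 for Dync1li1, -0.046 for Cacna1e, -0.26 for Dnajc13 and -0.70 for Mobp. Tars had -0.14 without its highest library in each group, and Dnajc13 -3.57 without experiment 1 and experiment 2. Depth limits genes near 10 CPM most, since a count of 0 in the shallowest library allows 8.89 CPM.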
